A study of Mus musculus with 24 samples.

Results

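Interferon-gamma (Ifng), interleukin 17A (Il17a), interleukin 17F (Il17f) and interleukin 21 (Il21) are secreted cytokines that mark CD4 T helper fates other than Th2. Ifng is the product by which Th1 cells are recognised, and it signals through its receptor and the JAK kinases to induce antiviral and antigen presentation genes. Il17a and Il17f are neighbouring genes of Th17 cells whose products act on epithelial and stromal cells to recruit neutrophils. Il21 is made by T follicular helper (Tfh) and Th17 cells and acts on B cells and T cells through its own receptor and the common gamma chain. In T cells these genes are induced through the antigen receptor, and IL-4, the cytokine that drives Th2 differentiation, opposes the Th1 and Th17 fates. The 4 genes were taken by name, from 10418 genes named on detected probes. They were read by 5 of the 25697 probes of the array, with 2 probes for Ifng, and all 5 were among the 14246 probes detected on at least 1 array. Il17a is listed under its older symbol Il17 and was matched by its gene identifier.

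The study examined the loss of BAF180, the protein of Pbrm1 and a subunit of the PBAF chromatin remodeling complex, in mouse CD4 T cells. RNA was hybridised to 24 Illumina MouseRef-8 v2 bead arrays, with 3 arrays, lettered A to C, in each of 8 groups. WT and BAF180-deficient cells were each taken in 4 states, which were resting Naive, stimulated Naive, resting Th2 and stimulated Th2. CD4 T cells with the surface phenotype of naive cells were isolated from spleen and lymph node of mice aged 4 to 6 weeks, at a stated purity of 95%. The labels give the strain as Balb/c, whereas the methods describe a mixed background that includes B6. BAF180 deficiency came from a conditional Pbrm1 allele deleted by Cre under the Cd4 promoter, which is active in the thymus before the CD4 and CD8 lineages part. Stimulated Naive cells were kept for 24 h on plates coated with antibodies to CD3 (1 µg/ml) and to CD28 (2 µg/ml). Th2 cells were grown on the same coating with IL-4 at 10 ng/ml and anti-IFN-γ at 10 µg/ml, with IL-2 at 100 U/ml from 24 h and for expansion at day 3. For stimulated Th2 cells the phorbol ester PMA (50 ng/ml) and the calcium ionophore ionomycin (500 ng/ml) followed for 1.5 h, so Naive and Th2 cells were not stimulated in the same way. The anti-IFN-γ antibody binds the secreted protein and was added to the Th2 cultures of both genotypes. The study describes the array samples as derived from mice taken in 3 pairs, a WT with a BAF180-deficient animal, and the labels do not say that a letter marks a pair.

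Per array, 8047 to 10689 of the 25697 probes were detected (detection p of at most 0.02), and the median deposited intensity lay between 40.6 and 48.9. Levels are given as log2 values after background correction, addition of 16 and quantile normalization. On this scale a probe without signal reads slightly above 4, and differences of dim probes are compressed. Levels can be compared between arrays for a given probe but not between probes. Pbrm1 was lower in BAF180-deficient cells in every state by its brightest probe, with no overlap between genotypes. Its dimmer probes were also lower in mean in every state but were called in none. The genotypes overlapped for these probes in resting Naive cells, and for 1 of them in stimulated Naive cells. In resting Naive cells its level was 8.54 ± 0.29 in WT against 7.52 ± 0.32 in BAF180-deficient cells (SD, n = 3 each), and 8.57 ± 0.25 and 6.94 ± 0.54 in stimulated Naive cells. In resting Th2 cells it was 9.00 ± 0.10 and 7.14 ± 0.10, and in stimulated Th2 cells 8.29 ± 0.20 and 6.87 ± 0.30. Whether the probe lies in the deleted exon was not examined, so the remaining signal cannot be assigned to intact or deleted transcript. In resting Naive cells the call by the 4 criteria of the methods, given below (limma adjusted p = 0.121), was lost at an adjusted p under 0.05. It was also lost there without BAF180-deficient array B (difference -0.89, limma adjusted p = 0.328). Over 36 alternatives that adjusted p ran from 0.0305 to 0.952. With each state normalized and fitted alone the call was lost in resting Naive (-0.95, adjusted p = 0.952), stimulated Naive (-1.68, adjusted p = 1.00) and stimulated Th2 cells (-1.45, adjusted p = 0.787), where the adjusted p over the alternatives started from 3.11e-05 in stimulated Naive and 0.000170 in stimulated Th2 cells.

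The labelled cell types were checked against lists of marker genes. All 6 listed CD4 T cell markers, among them the T cell receptor subunits Cd3g and Cd3d, were detected on every array. Of 8 genes of the Th2 program, 4 were higher in resting Th2 than in resting Naive WT cells and 5 in BAF180-deficient cells, and 0 were lower by limma at an adjusted or at an unadjusted p under 0.05. Of all genes 17.9% were higher in WT and 18.2% in BAF180-deficient cells. Il4, the lineage cytokine, rose by 2.49 in WT and 3.34 in BAF180-deficient cells, and Gata3, the lineage transcription factor, by 1.62 and 1.50. The median difference of the 8 genes was 0.66 in WT and 0.89 in BAF180-deficient cells. Between genotypes limma called 0 of the 8 in any of the 4 states, with 1 at an unadjusted p under 0.05 in stimulated Naive cells and 1 in resting Th2 cells.

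Ifng was detected in freshly isolated Naive cells of both genotypes, was below detection in resting Th2 cells except on WT array B, and reached its highest levels in stimulated cells. In resting Naive cells arrays A, B and C read 7.15, 7.52 and 6.97 in WT and 7.91, 7.15 and 6.63 in BAF180-deficient cells, all detected. Upon stimulation of Naive cells the WT arrays read 10.12, 8.96 and 9.57 and the BAF180-deficient arrays 11.11, 10.59 and 10.00. The BAF180-deficient array was the higher one within each letter, although across letters BAF180-deficient array C lay below WT array A. In resting Th2 cells the WT arrays read 4.29, 5.77 and 4.25 and the BAF180-deficient arrays 4.27, 4.29 and 4.28, with WT array B as the lone detected array. Stimulated Th2 cells read 11.11, 10.21 and 11.14 in WT and 11.33, 10.50 and 10.51 in BAF180-deficient cells, with overlapping genotypes. Among the 8 groups, neighbours in the order of levels did not overlap between resting Th2 and resting Naive cells or between resting and stimulated Naive cells, and all other neighbours overlapped. The second Ifng probe was detected on 18 arrays, against 19 for the brighter probe, and its resting groups stood in the same order. Its stimulated groups were further apart, since BAF180-deficient stimulated Naive cells overlapped neither WT stimulated Naive nor stimulated Th2 cells. By this probe stimulated Naive cells read 8.73, 7.90 and 8.45 in WT and 9.21, 9.35 and 8.94 in BAF180-deficient cells, which did not overlap.

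**Figure D1:**
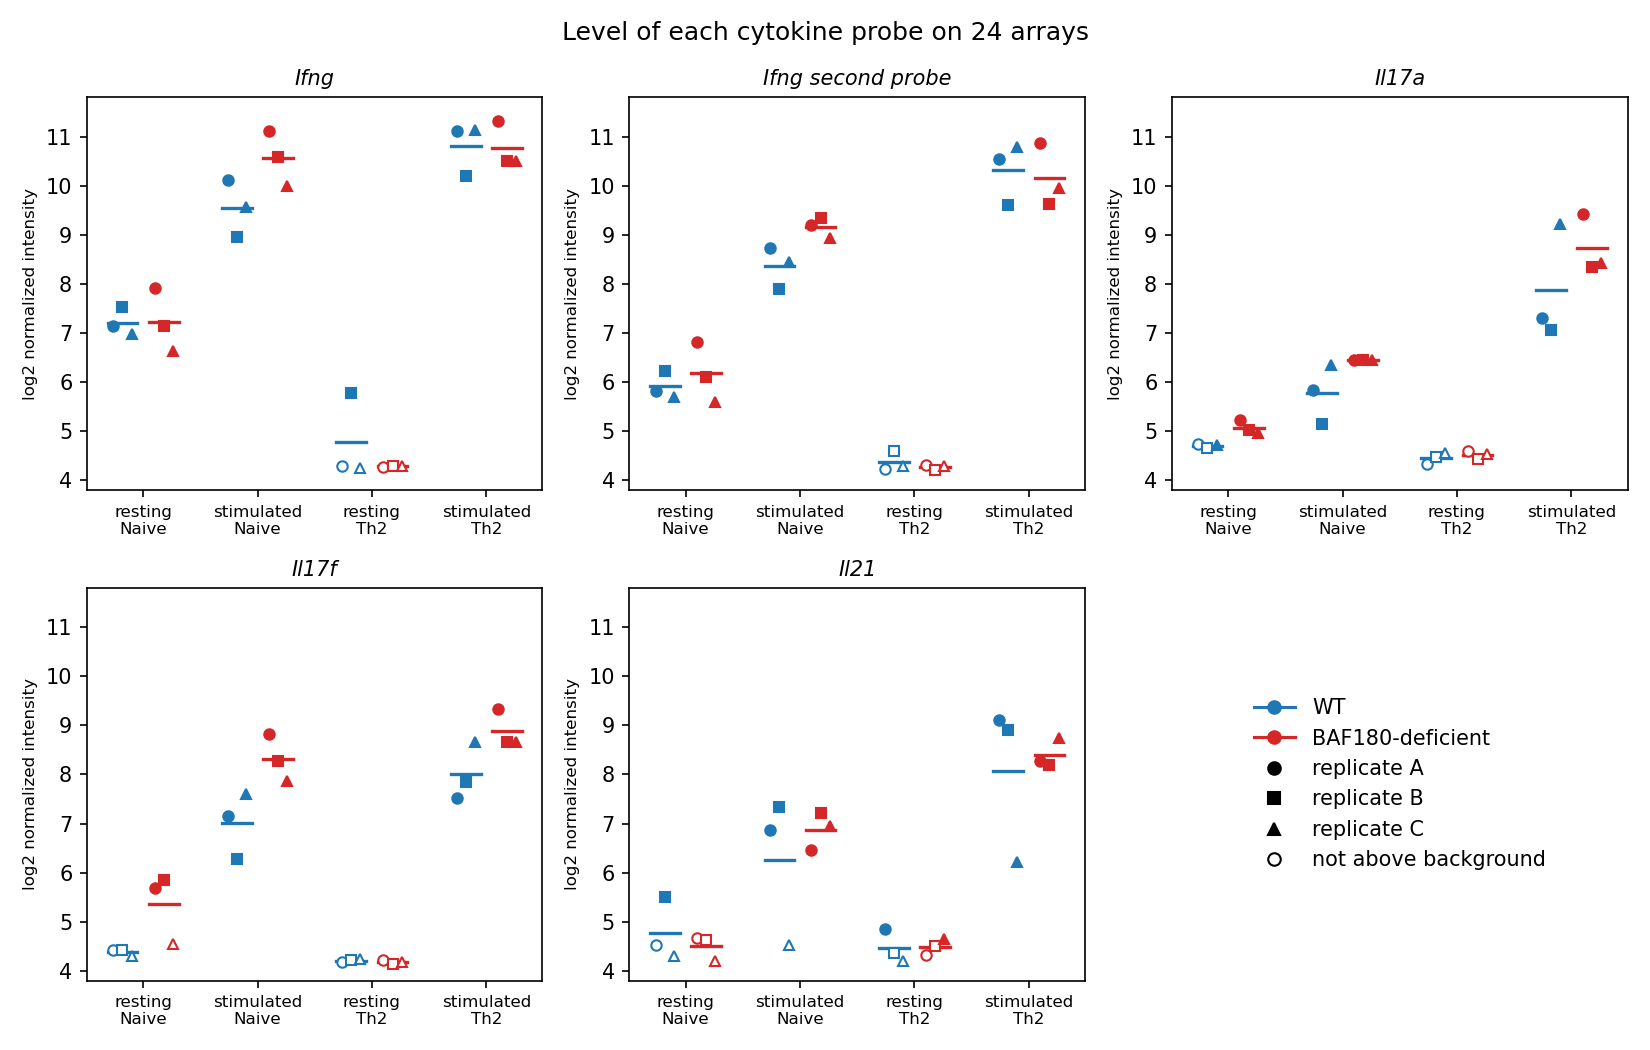
Normalized log2 level of each of the 5 cytokine probes on every array, by cell state and genotype. Filled points are detected, open points are not, and bars are the means of 3 arrays. The levels of Ifng in resting Th2 cells, with means of 4.77 in WT and 4.28 in BAF180-deficient cells, lie below those of every other state.

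Il17a was dim in resting cells and rose with each kind of stimulation. It was detected on 1 of 3 WT resting Naive arrays (4.74, 4.66 and 4.72, with C detected) and on all 3 BAF180-deficient ones (5.22, 5.03 and 4.97). In stimulated Naive cells the WT arrays read 5.84, 5.15 and 6.34 and the BAF180-deficient arrays 6.46, 6.44 and 6.45. In both Naive states the lowest BAF180-deficient array exceeded the highest WT array, although WT resting Naive arrays A and B were below detection. Il17a was detected on none of the 6 resting Th2 arrays, which lay between 4.33 and 4.59. Stimulated Th2 cells read 7.31, 7.07 and 9.23 in WT and 9.43, 8.34 and 8.42 in BAF180-deficient cells. The spread of the WT arrays came from array C, whose deposited intensity was 1278 against 135 and 182 on arrays A and B. Ordered by level, stimulated Th2 cells of both genotypes came last, did not overlap stimulated Naive cells and overlapped each other.

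Il17f, which shares its receptor with Il17a, was below detection in WT resting Naive cells and in all resting Th2 cells. The WT resting Naive arrays read 4.42, 4.43 and 4.30, and the BAF180-deficient arrays 5.69, 5.85 and 4.55, with A and B detected and C not. Stimulated Naive cells read 7.16, 6.27 and 7.61 in WT and 8.83, 8.27 and 7.87 in BAF180-deficient cells. As for Il17a, the genotypes were apart in both Naive states, with the BAF180-deficient arrays higher. In resting Naive cells BAF180-deficient array C and the WT arrays were all below detection, so their order is not established. The 6 resting Th2 arrays lay between 4.14 and 4.23. In stimulated Th2 cells WT arrays read 7.53, 7.85 and 8.66 and BAF180-deficient arrays 9.34, 8.67 and 8.66, so that WT array C met the lowest of the BAF180-deficient arrays. The 4 stimulated groups followed one another without a gap, and neither WT and BAF180-deficient resting Naive cells nor BAF180-deficient resting and WT stimulated Naive cells overlapped. Resting Th2 and WT resting Naive cells, both below detection, have no order.

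Il21 was the member with the widest spread between WT arrays in the stimulated states. It was detected on 1 of 3 WT resting Naive arrays (4.53, 5.50 and 4.30, with B detected) and on none of the BAF180-deficient ones (4.67, 4.63 and 4.20). In stimulated Naive cells the WT arrays read 6.87, 7.34 and 4.53, the last below detection, and the BAF180-deficient arrays 6.46, 7.21 and 6.94. Stimulated Th2 cells read 9.11, 8.90 and 6.22 in WT and 8.28, 8.19 and 8.74 in BAF180-deficient cells. WT array C was thus the lowest array in both stimulated states, with deposited intensities of 48.6 against 143 and 156 in stimulated Naive cells and of 163 against 397 and 599.6 in stimulated Th2 cells. The SD of the WT arrays was 1.50 in stimulated Naive and 1.61 in stimulated Th2 cells, against 0.38 and 0.30 in BAF180-deficient cells. Resting Th2 arrays lay between 4.19 and 4.85, with WT array A and BAF180-deficient array C detected. No neighbouring pair in the order of the 8 group means was free of overlap.

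**Figure D2:**
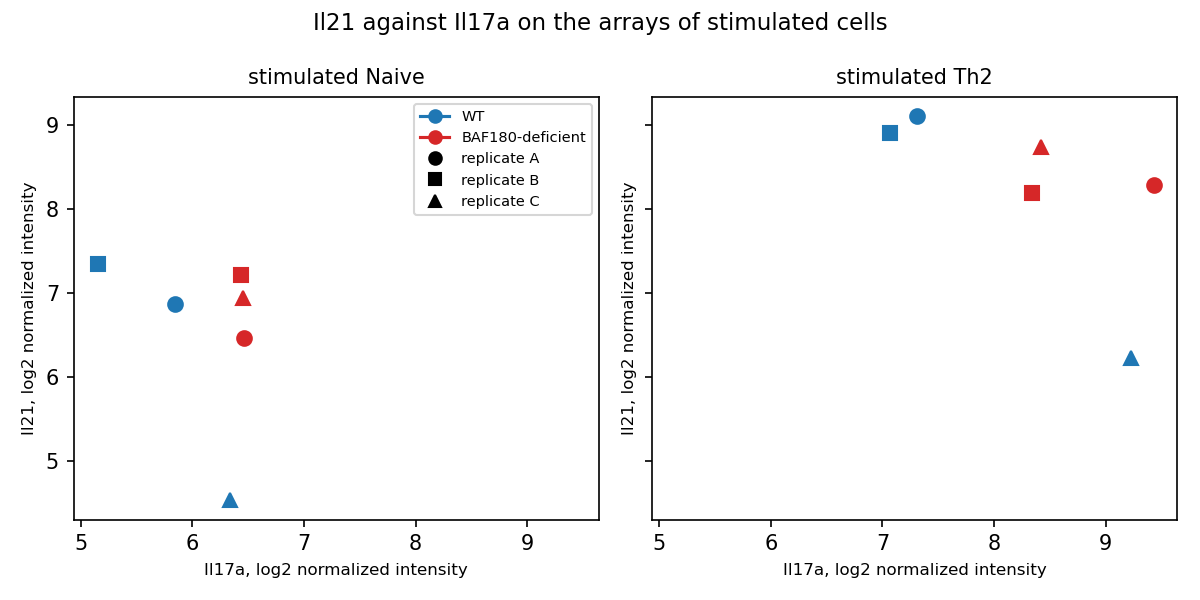
Log2 level of Il21 (vertical) against that of Il17a (horizontal) on the 12 stimulated arrays, by cell state and genotype. The WT arrays lettered C stand at 4.53 for Il21 in stimulated Naive and 6.22 in stimulated Th2 cells, while their Il17a levels of 6.34 and 9.23 are the highest of their WT groups.

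Stimulation of Naive cells through CD3 and CD28 raised Ifng, Il17a and Il17f in WT cells and all 4 cytokines in BAF180-deficient cells. In WT cells 3 of the 4 genes were called higher and 0 lower, when 23.3% of the 10418 genes were called higher and 21.9% lower by limma at an adjusted p under 0.05. Ifng rose by 2.34 (SE 0.40), a 5.06-fold difference, with limma adjusted p = 8.10e-05, and the second probe rose by 2.45. Il17f rose by 2.63 (SE 0.34, adjusted p = 2.84e-06), at least 4.45-fold. Bounds of this kind set the mean of the group with signal against the lowest detected level on the arrays of the group below detection. They allow for the detection floor but not for the spread between arrays, so they are not confidence limits. All 3 stimulated arrays lay above all 3 resting arrays for each of these genes. Il17a rose by 1.07 (SE 0.39, adjusted p = 0.0296), which was the weakest of the calls. That call was lost without any 1 of the WT resting Naive arrays A, B and C (1.10, 1.06 and 1.08, adjusted p = 0.0565, 0.0645 and 0.0543) or without WT stimulated Naive array A or C (1.04 and 0.78, adjusted p = 0.0676 and 0.159). It was also lost without background correction (0.64, adjusted p = 0.134), with an offset of 50 (0.58, adjusted p = 0.188), without a filter on dim probes (adjusted p = 0.0689) and by the 4 criteria used for genotype calls, and over 34 alternatives the adjusted p ran from 0.00165 to 0.188.

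The Il21 difference in WT Naive cells, 1.47 (SE 0.62, limma adjusted p = 0.0594), missed the threshold, and the groups overlapped because stimulated array C was not detected. Without that array the difference was 2.32 (adjusted p = 0.00258), and without WT resting Naive array B it was 1.86 (adjusted p = 0.0376). Leaving out WT stimulated Th2 array A or C, which changes the shared spread but not the groups compared, gave 1.48 and 1.45 (adjusted p = 0.050 and 0.0156). With the letter as a replicate block over all arrays Il21 passed (adjusted p = 0.0328), which made 4 of 4 genes higher, and it passed also with a stricter filter on dim probes (adjusted p = 0.0454) and by the 4 criteria. Over its 34 alternatives the adjusted p of Il21 ran from 0.00258 to 0.463. In BAF180-deficient Naive cells 4 of 4 genes were called higher and 0 lower, against 22.1% and 21.3% of all genes. Ifng rose by 3.34 (10.1-fold, adjusted p = 1.15e-06), Il17f, detected on 2 of 3 resting arrays, by 2.96 (adjusted p = 6.66e-07), Il21 by 2.37 (at least 4.17-fold, adjusted p = 0.00373) and Il17a by 1.38 (adjusted p = 0.00644). All stimulated arrays lay above all resting arrays for the 4 genes. With an offset of 50 the Il17a call was lost (0.84, adjusted p = 0.0576, the highest of 34 alternatives, of which the lowest was 0.000153), as it was by the 4 criteria.

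In Th2 cells, PMA and ionomycin raised all 4 cytokines in both genotypes within 1.5 h, although the cells had been cultured under Th2 conditions. In WT cells 4 of 4 genes were called higher and 0 lower, when 12.5% of all genes were called higher and 15.9% lower. Ifng rose by 6.05 (SE 0.40, limma adjusted p = 7.25e-10) from a resting level detected on 1 of 3 arrays, and by 5.95 (at least 52.5-fold) at the second probe. Il17f rose by 3.81 (at least 10.7-fold, adjusted p = 5.12e-08) and Il17a by 3.41 (at least 9.64-fold, adjusted p = 9.86e-07). Il21 rose by 3.61 (adjusted p = 0.000132), also from a level detected on 1 of 3 resting arrays. In BAF180-deficient cells 4 of 4 were again called higher and 0 lower, against 11.7% and 15.4% of all genes. There Ifng rose by 6.50 (at least 73.7-fold, adjusted p = 3.69e-10), Il17f by 4.71 (at least 19.9-fold, adjusted p = 2.99e-09), Il17a by 4.21 (at least 17.8-fold, adjusted p = 8.46e-08) and Il21, detected on 1 of 3 resting arrays, by 3.91 (adjusted p = 6.78e-05). For every gene and genotype, the stimulated arrays did not overlap the resting arrays, and the 4 of 4 count held under all 34 alternatives in each genotype.

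Resting Th2 cells had less Ifng mRNA than resting Naive cells. In WT cells 1 of 4 genes was called lower and 0 higher, when 17.6% of all genes were called lower and 17.9% higher by limma. Ifng fell by 2.44 (SE 0.40, adjusted p = 8.74e-05), and its second probe fell by 1.54 (at least 2.48-fold). In BAF180-deficient cells 2 of 4 genes were called lower and 0 higher, against 17.5% and 18.2% of all genes. Ifng fell by 2.95 (at least 6.30-fold, adjusted p = 9.81e-06) and Il17f fell by 1.19 (SE 0.34, at least 1.72-fold, adjusted p = 0.0108). The Il17f call rested on the resting Naive arrays A and B, since it was lost without A (-1.04, adjusted p = 0.0501), without B (-0.96, adjusted p = 0.0663), with an offset of 50 (-0.56, adjusted p = 0.131) and by the 4 criteria. Its adjusted p ran from 0.00112 to 0.131 over 34 alternatives. Il17a differed by -0.56 in BAF180-deficient cells (adjusted p = 0.283), and Il21 was near or below detection on both sides.

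In resting Naive cells, 0 of the 4 cytokines were called between genotypes by the 4 criteria of the methods, which were met by 0.758% of all genes. The study itself applied its criteria to Z-scores, and there Ifng and Il17f were listed with the genes that BAF180 appeared to repress in Naive cells. It does not say in that list whether these cells were resting or stimulated. The criteria, applied to limma's values, were a difference over 1.5 times the SD of all differences (0.36 on the log2 scale in resting Naive, 0.28 in stimulated Naive, 0.31 in resting Th2 and 0.28 in stimulated Th2 cells), a false discovery rate under 0.3, a p under 0.05 and a mean signal above 0. By limma 1 of the 4 genes, Il17f, had an unadjusted p under 0.05, as had 973 of the 14246 probes. Its level in BAF180-deficient cells was 0.98 higher (SE 0.34, 95% interval 0.27 to 1.70, unadjusted p = 0.00960, adjusted p = 0.541). Set against the detection floor the means differed by at least 1.42-fold, a bound that leaves out the spread between arrays. For 2 of 4 genes, Il17a and Il17f, all 3 BAF180-deficient arrays exceeded all 3 WT arrays, as was so for 4.39% of all genes. This order rests in part on readings below detection. For Il17a these were WT arrays A and B, and for Il17f all 3 WT arrays and BAF180-deficient array C. A two-sided exact permutation test of 3 arrays against 3 cannot fall below 0.1, and it gave 0.10 for both. With the letter as a replicate block within each state Il17f was called (adjusted p = 0.295), as it was without BAF180-deficient array C (difference 1.40, adjusted p = 0.128), and its adjusted p ran from 0.128 to 1.00 over 36 alternatives. Il17a was 0.37 higher (SE 0.39, adjusted p = 0.997), and Ifng and Il21 differed by 0.02 and -0.28, less than their SE of 0.40 and 0.62.

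In stimulated Naive cells the mean levels of Ifng and Il17f in BAF180-deficient cells were 2.03-fold and 2.48-fold those of WT, but these differences too missed the criteria. Of the 4 genes 0 were called, when 0.115% of all genes met the 4 criteria, and 2 of 4, Ifng and Il17f, had an unadjusted limma p under 0.05, as had 321 of the 14246 probes. Il17f was 1.31 higher (SE 0.34, 95% interval 0.59 to 2.03, unadjusted p = 0.00109, limma adjusted p = 0.704). Ifng was 1.02 higher (SE 0.40, 95% interval 0.17 to 1.86, unadjusted p = 0.0204, adjusted p = 1.00), and its second probe 0.81 higher (SE 0.33, unadjusted p = 0.0231, adjusted p = 1.00). The BAF180-deficient arrays all exceeded the WT arrays for 2 of 4 genes, Il17a and Il17f, and for 3.42% of all genes, and the exact permutation p was 0.10 for both. Il17a differed by 0.67 (95% interval -0.13 to 1.48), and by 0.36 without WT array B and 0.95 without WT array C. Il21 differed by 0.62, with an interval from -0.67 to 1.91 that covers a lower as well as a higher level, and it was -0.24 without WT array C and 1.37 with arrays weighted. Without WT array C Il17f was called (difference 1.61, adjusted p = 0.274), and over 36 alternatives its adjusted p ran from 0.0656 to 1.00. The number of genes called ran from 0 to 3 over those alternatives, with 3 when arrays were given weights.

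In resting Th2 cells the members were near or below detection, apart from Ifng on WT array B (5.77). By the 4 criteria 0 of 4 were called, as against 0.106% of all genes. By limma 0 of the 4 had an unadjusted p under 0.05, against 489 of the 14246 probes, and 0 of 4 had all BAF180-deficient arrays above all WT arrays, which held for 5.81% of all genes. In stimulated Th2 cells the wider differences lay in the IL-17 genes. Again 0 of 4 were called, when 0.0960% of all genes met the 4 criteria, and Il17a and Il17f, 2 of 4, had an unadjusted limma p under 0.05, as had 397 of the 14246 probes. Il17f was 0.88 higher in BAF180-deficient cells (SE 0.34, 95% interval 0.16 to 1.59, unadjusted p = 0.0188, adjusted p = 1.00), and Il17a was 0.86 higher (SE 0.39, 95% interval 0.05 to 1.66, unadjusted p = 0.0377, adjusted p = 1.00). The genotypes overlapped for all members, so that 0 of 4 had the BAF180-deficient arrays entirely above those of WT, against 3.85% of all genes. WT array C held the highest WT level of both genes, and without it Il17a was 1.53 higher and called (limma adjusted p = 0.0314, the lowest of 36 alternatives, of which the highest was 1.00). Without WT array B Il17a was 0.46 higher and without BAF180-deficient array A 0.51, neither called. Ifng differed by -0.04 (95% interval -0.88 to 0.80), and Il21 differed by 0.32 (95% interval -0.96 to 1.61). The Il21 difference was -0.60 without WT array C, -0.09 with arrays weighted and -0.08 with weights fitted gene by gene, an alternative chosen after the data were seen. With arrays weighted Il17a (1.35, limma adjusted p = 0.197) and Il17f (1.07, limma adjusted p = 0.198) were called. Weights fitted gene by gene called both as well (1.34 and 1.07, limma adjusted p = 0.204 and 0.205).

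**Figure D3:**
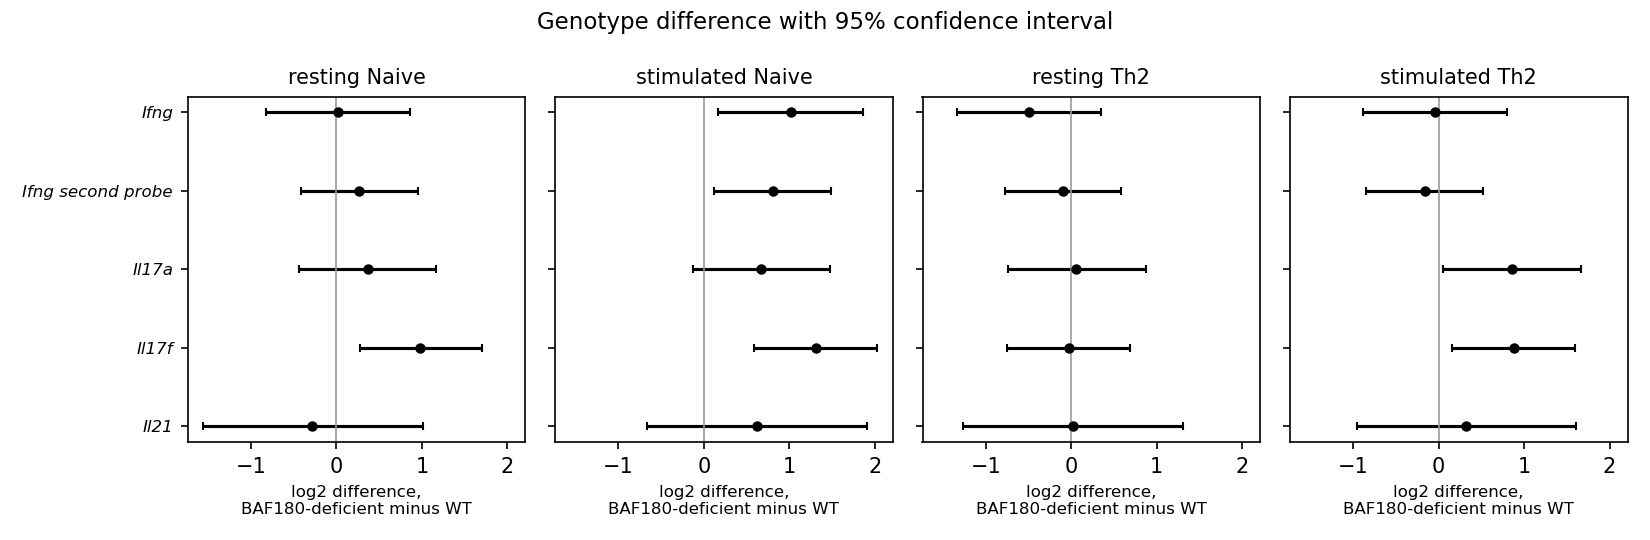
Difference of the log2 level between BAF180-deficient and WT cells (horizontal) for the 5 cytokine probes in the 4 states, with 95% confidence intervals from limma. The intervals of Il17f lie above 0 in 3 states, with differences of 0.98, 1.31 and 0.88, those of Ifng in stimulated Naive cells at 1.02 and that of Il17a in stimulated Th2 cells at 0.86, while no difference passed the criteria after adjustment over all probes.

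Whether the genotype difference changed between states was tested directly by the interaction terms. By limma 0 of 4 members passed an adjusted p under 0.05 in each of the 3 interactions, and 0 of 4 had an unadjusted p under 0.05. The same threshold was passed by 0.00960% of all genes for stimulation of Naive cells, by 0% for stimulation of Th2 cells and by 0.00960% for resting Th2 against resting Naive cells. The genotype difference of Ifng was 1.00 larger in stimulated than in resting Naive cells (SE 0.57, unadjusted p = 0.0959, adjusted p = 1.00). For stimulation of Th2 cells the terms of Il17f and Il17a were 0.91 (SE 0.49, unadjusted p = 0.0766) and 0.80 (SE 0.55, unadjusted p = 0.159), and for resting Th2 against resting Naive cells that of Il17f was -1.01 (SE 0.49, unadjusted p = 0.0502), all with a limma adjusted p of 1.00. Resting Th2 cells of both genotypes were below detection for both genes and WT resting Naive cells for Il17f, so the size of these 3 terms depends on the floor of the scale. In these 3 interactions, a genotype difference present in some states and lacking in others was not established for any member. Stimulated Th2 and stimulated Naive cells were not compared in this way.

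The Th1 program comprised 14 genes, of which Runx3 was detected on no array. Upon stimulation of WT Naive cells 3 of the 13 measured genes rose and 6 fell (median -0.24), and in BAF180-deficient Naive cells 3 rose and 5 fell (median -0.34), when 23.3% and 21.9% of all genes rose and fell in WT and 22.1% and 21.3% in BAF180-deficient cells. Tbx21, the transcription factor T-bet that drives Ifng, rose by 2.42 in WT (limma adjusted p = 5.84e-07) and 2.66 in BAF180-deficient cells, and Il12rb1, a receptor chain for IL-12, by 2.20 and 2.25. Il18r1, the receptor through which IL-18 boosts Ifng, fell (-3.32 and -2.63), and the chemokine Ccl5 fell (-2.40 and -2.84). In Th2 cells 5 rose and 3 fell in each genotype (median 0.06 in WT and -0.00 in BAF180-deficient cells), when 12.5% and 15.9% of all genes rose and fell in WT and 11.7% and 15.4% in BAF180-deficient cells. Tbx21 rose there by 3.13 and 3.08 and Ccl5 by 2.69 and 2.88, whereas Stat4, the IL-12 signal transducer, fell (-2.28 and -2.39). At rest, 1 of the 13 was higher and 4 lower in Th2 than in Naive WT cells, and 1 higher and 5 lower in BAF180-deficient cells, with Il18r1 among the lower (-2.65 and -2.60), when 17.9% and 17.6% of all genes were higher and lower in WT and 18.2% and 17.5% in BAF180-deficient cells. Over all genes the medians of these comparisons were -0.01 to 0.00. Between genotypes 1 of the 13 was called, Il18r1 in stimulated Naive cells, where it was 1.03 higher in BAF180-deficient cells (SE 0.24, adjusted p = 0.291), when 0.115% of all genes were called by the 4 criteria, a call lost when any of 19 of the 24 arrays was left out (adjusted p from 0.000856 to 1.00 over 36 alternatives). In the other 3 states limma called 0 of 13, with 1, 2 and 2 genes at an unadjusted p under 0.05 in resting Naive, resting Th2 and stimulated Th2 cells.

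Of the 13 genes of the Th17 program, Il23r, Il22 and Ahr were detected on no array. In Naive cells 2 of the 10 measured genes rose and 4 fell upon stimulation in each genotype (median -0.24 in WT and -0.46 in BAF180-deficient cells), against 23.3% and 21.9% of all genes in WT and 22.1% and 21.3% in BAF180-deficient cells. Irf4, a transcription factor needed for several helper fates, rose by 3.12 in WT and 2.74 in BAF180-deficient cells. Il6ra, the receptor for IL-6, fell (-2.83 and -2.85), and Rora, a nuclear receptor of Th17 cells, fell (-2.37 and -2.34). In Th2 cells 1 rose and 1 fell in each genotype (median -0.05 and -0.04), and the gene that rose was Irf4, by 2.17 and 1.74, when 12.5% and 11.7% of all genes rose and 15.9% and 15.4% fell. At rest 2 were higher and 5 lower in Th2 than in Naive cells in each genotype, among them Il6ra (-2.29 and -2.67), Rora (-2.19 and -2.67) and the chemokine receptor Ccr6 (-2.65 and -2.63), all lower, when 17.9% and 17.6% of all genes were higher and lower in WT and 18.2% and 17.5% in BAF180-deficient cells. Limma called 0 of the 10 between genotypes in any state, with 1 gene at an unadjusted p under 0.05 in resting Naive cells, 1 in resting Th2 cells and 0 in the stimulated states.

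The Tfh program had 11 genes, of which Pdcd1 and Ascl2 were detected on no array and Tox2 was not examined for want of a probe under that name. In Naive cells 2 of 8 rose and 3 fell upon stimulation in WT (median -0.30), and 2 rose and 2 fell in BAF180-deficient cells (median -0.25), against 23.3% and 21.9% of all genes in WT and 22.1% and 21.3% in BAF180-deficient cells. Bcl6, the transcription factor that defines Tfh cells, fell (-2.26 and -1.94) in Naive cells, and Cd200, a surface glycoprotein, rose by 1.98 and 2.28. In Th2 cells 4 rose and 1 fell in WT (median 0.48), and 3 rose and 1 fell in BAF180-deficient cells (median 0.46), when 12.5% and 11.7% of all genes rose and 15.9% and 15.4% fell. There Bcl6 rose by 1.44 in WT and 1.40 in BAF180-deficient cells and Cd200 by 2.79 and 2.82. Bcl6 was thus opposite in direction in the stimulated Naive and stimulated Th2 cells, in both genotypes. At rest 0 were higher and 3 lower in Th2 than in Naive cells in each genotype, with 1 higher gene at an unadjusted limma p under 0.05, and Bcl6 was among the lower (-3.52 and -3.73), when 17.6% and 17.5% of all genes were lower and 17.9% and 18.2% higher. Between genotypes limma called 0 of 8 in any state. The mean was higher in BAF180-deficient cells for 6, 8, 7 and 7 of 8 in resting Naive, stimulated Naive, resting Th2 and stimulated Th2 cells (medians 0.13, 0.25, 0.14 and 0.11, against 0.00, 0.01, 0.00 and 0.00 over all genes), with 1 at an unadjusted p under 0.05 in each stimulated state and 0 in the resting states.

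Receptors and proximal signaling genes of the member cytokines were all measured, 15 of 15. Stimulation of Naive cells lowered 6 of them in WT and 7 in BAF180-deficient cells and raised 0 by limma, with 1 and 2 higher at an unadjusted p under 0.05 (medians -0.31 and -0.41), when 21.9% and 21.3% of all genes fell and 23.3% and 22.1% rose. In these comparisons limma also called lower 4 of 4 myeloid (medians -2.97 and -3.16) and 2 of 5 B cell markers in each genotype. So it did 3 of 4 NK markers in WT and 2 of 4 in BAF180-deficient cells. The part of such cells was not tested. Ifngr1, the ligand-binding chain of the IFN-γ receptor, fell by 3.14 in WT (limma adjusted p = 1.23e-07) and fell by 2.84 in BAF180-deficient cells. It also fell in stimulated Th2 cells (-2.79 and -2.78), where Jak2, a kinase bound to the IFN-γ receptor, rose by 2.60 (adjusted p = 1.85e-08) and 2.79. In Th2 cells 2 of 15 rose and 3 fell in WT (median -0.23), and 2 rose and 4 fell in BAF180-deficient cells (median -0.24), when 12.5% and 15.9% of all genes rose and fell in WT and 11.7% and 15.4% in BAF180-deficient cells. Ifng and its ligand-binding receptor chain thus moved in opposite directions with each stimulus in both genotypes. At rest 0 were higher and 3 lower in WT Th2 cells, and 1 higher and 2 lower in BAF180-deficient ones (medians -0.26 and -0.24), against 17.9% and 17.6% of all genes in WT and 18.2% and 17.5% in BAF180-deficient cells. Between genotypes limma called 0 of 15 in any state, with 2 lower genes at an unadjusted p under 0.05 in resting Th2 and 2 in stimulated Th2 cells.

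Target genes of IFN-γ numbered 15, of which Iigp1 was not detected. In Naive cells, where no antibody to IFN-γ was added, 4 of 14 rose upon stimulation and 1 fell in each genotype (medians 0.30 and 0.37), when 23.3% and 22.1% of all genes rose and 21.9% and 21.3% fell. Gbp2 and Gbp5, guanylate binding proteins of host defence, rose by 2.86 (limma adjusted p = 7.88e-09) and 2.08 in WT and by 2.50 and 1.57 in BAF180-deficient cells. Ciita, the activator of MHC class II genes, fell (-2.56 and -2.97), as did 4 of 4 myeloid markers (medians -2.97 and -3.16) and 2 of 5 B cell markers (medians of the 5 -1.43 and -1.67) in each genotype, and the part of such cells in its fall was not tested. In Th2 cells 3 of 14 rose and 2 fell in WT (median -0.05), and 1 rose and 5 fell in BAF180-deficient cells (median -0.25), against 12.5% and 15.9% of all genes in WT and 11.7% and 15.4% in BAF180-deficient cells. At rest 2 were higher and 4 lower in WT Th2 than Naive cells (median -0.05), and 1 was higher and 5 lower in BAF180-deficient cells (median -0.22), against 17.9% and 17.6% of all genes in WT and 18.2% and 17.5% in BAF180-deficient cells. Among the lower genes was Ciita (-2.93 and -3.04). Limma also called lower 4 of 4 myeloid markers at rest (medians -3.08 and -3.27), whose part was not tested. Between genotypes limma called 0 of 14 in any state, with 1 higher and 1 lower gene at an unadjusted p under 0.05 in resting Th2 cells and 0 in resting Naive cells. In stimulated Naive cells, in which the Ifng level was 1.02 higher in BAF180-deficient cells, 4 of the 14 target genes were higher (median -0.15, against 0.01 over all genes), 0 at an unadjusted p under 0.05. In stimulated Th2 cells 2 of 14 were higher (median -0.24, against 0.00 over all genes), and 5 lower genes had an unadjusted p under 0.05, as had 397 of the 14246 probes in either direction. Irf1 and Socs1 are among the genes of this list that stand in other lists as well.

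Markers of other cells that can make these cytokines, or that the isolation could leave, were summed per array as normalized intensity without the added 16. The brightest probe of a sum is named as a description, since brightness does not rank genes by abundance. Effector or memory T cell markers, 8 of 8, were measured. In resting Naive cells their sum was 1234, 1443 and 1088 in WT and 2166, 2016 and 1597 in BAF180-deficient arrays A, B and C, without overlap. Ccl5 was the brightest of their probes on all 3 BAF180-deficient arrays, and Il2rb was not detected on 5 of the 6. The mean was higher in BAF180-deficient cells for 8 of 8 (median 0.34, against 0.00 over all genes), with 2 at an unadjusted limma p under 0.05, and 1 of 8, the calcium-binding protein S100a6, was called (1.09, SE 0.30, adjusted p = 0.263), when 0.758% of all genes were called by the 4 criteria, a call lost when any of 13 of the 24 arrays was left out (adjusted p from 0.0883 to 1.00 over 36 alternatives). The sums in stimulated Naive cells were 399, 270 and 389 in WT and 499, 410 and 371 in BAF180-deficient cells, with Cd44 as the brightest probe. In resting Th2 cells they were 1311, 1148 and 1623 in WT and 1385, 1063 and 1250 in BAF180-deficient cells, and in stimulated Th2 cells 2474, 2198 and 2454 and 2213, 1643 and 1916. The isolation selected cells of the naive surface phenotype, and the part of effector or memory cells left by it in the Il17f difference was not tested. In these bulk samples fewer cells of a type and less RNA per cell cannot be told apart.

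NK cells, which make IFN-γ, had 4 of 6 markers measured, while Ncr1 and Gzma were detected on no array. Among the resting Naive arrays, Klrb1c was detected on WT array C alone. In resting Naive cells the sum, with Klrd1 as the brightest probe, was 192, 226 and 385 in WT against 97.8, 204 and 310 in BAF180-deficient cells, and 9.58 to 43.2 in resting Th2 cells, the comparison in which Ifng fell. It was 18.7 to 26.6 in stimulated Naive and 8.50 to 30.9 in stimulated Th2 cells, where Ifng was high. Myeloid markers, 4 of 6 measured with Itgam and Itgax on no array, ran from 867 to 3444 in resting Naive cells, with Lyz2 as the brightest probe, and from 18.0 to 48.7 in the other states. B cell markers, 5 of 5, ran from 320 to 971 in resting Naive cells, with Cd79b as the brightest probe, and from 19.5 to 392 elsewhere. The fall of Ifng from resting Naive to resting Th2 cells thus went with a fall of NK, myeloid and B cell markers, whose part in it was not tested. In the same comparison limma called lower 3 of 4 NK, 4 of 4 myeloid and 2 of 5 B cell markers in WT, and 2, 4 and 3 in BAF180-deficient cells, when 17.6% and 17.5% of all genes were lower. Cd8b1, a CD8 T cell marker, differed by -0.59 in WT (not called) and -1.40 in BAF180-deficient cells (called lower). Its part was not tested either.

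For γδ T cells, a source of IL-17, Blk and Cd163l1 were measured, 2 of 5, while Sox13 was detected on no array and the receptor genes Trdc and Tcrg-C1 were not examined for want of a probe under those names. In stimulated Th2 cells Cd163l1 was detected on no array, and Blk, which B cells also express, was not detected on WT arrays A and B and BAF180-deficient array B. The sum of both was 6.85, 5.58 and 48.8 in WT and 19.6, 9.41 and 83.3 in BAF180-deficient cells. Array C was the highest of both genotypes, as it was for the B cell markers (77.4 in WT and 157 in BAF180-deficient cells), and in WT it was the array with the highest Il17a (9.23), whereas in BAF180-deficient cells Il17a was highest on array A (9.43, against 8.42 on C). Their sum in stimulated Naive cells was 39.1, 29.9 and 34.4 in WT and 38.6, 16.4 and 57.6 in BAF180-deficient cells, with Cd163l1 again not detected. Resting Naive cells had 51.6, 69.1 and 95.8 in WT and 38.5, 82.6 and 128 in BAF180-deficient cells. The CD8 T cell marker Cd8b1, 1 of 2 measured since Cd8a was on no array above detection, was lower in BAF180-deficient stimulated Naive cells, with 197, 163 and 269 in WT against 79.2, 128 and 139. In stimulated Th2 cells it was 149, 169 and 341 in WT and 85.0, 71.0 and 275 in BAF180-deficient cells. In resting Th2 cells it was 215, 187 and 324 in WT and 72.1, 79.5 and 246 in BAF180-deficient cells. Between genotypes limma called 0 of these 3 markers in any state, with Cd8b1 in resting Th2 cells as the lone unadjusted p under 0.05, and their part in the cytokine levels was not tested. Naive T cell markers, 5 of 6 measured, were all detected on every resting array.

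Genes with the most similar profiles to the members were found by Pearson's r of log2 levels over the 24 arrays, which fall into 8 groups and share the effect of stimulation. For Ifng these were Egr2 (0.96), Rgs16 (0.94), Cdk5r1 (0.94), Ccl4 (0.94) and Il17f (0.93), and for its second probe Ccl3 (0.97), Rgs16 (0.97), Egr2 (0.96), Il17f (0.96) and Cd200 (0.95). Egr2 is a transcription factor induced by the antigen receptor, and Ccl3 and Ccl4 are chemokines. For Il17f they were Cd200 (0.96), Crabp2 (0.94), Tbx21 (0.94), Ccl3 (0.94) and Ifng (0.93), and for Il17a Slc13a3 (0.95), Slc5a3 (0.94), Ccl3 (0.94), Ggct (0.94) and Il5 (0.93). Ifng and Il17f thus stood on each other's lists, and Ccl3 stood on those of Il17a, Il17f and the second Ifng probe. For Il21 the values were lower, with Gfod1, Plscr1, Il15ra and Zbed5 at 0.90 and Sema7a at 0.89.

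Because stimulation raised the 4 genes, apart from Il21 in WT Naive cells, the 250 bases before the start of each were read from RefSeq (GRCm38.p6), in which all 4 were matched. Exact matches on both strands were sought to GGAAA, the core of NFAT sites, TGANTCA, a loose form of the AP-1 site, TTCNNNGAA, the STAT site, AGGTCA, the core bound by ROR receptors, and GGTGTGA, the core bound by T-box factors. N stands for any base. Capitals mark the matches, which did not overlap one another, and each sequence is given 5′ to 3′ on the strand of its gene. The windows are chr10:118440796-118441045 on the plus strand for Ifng, chr1:20730655-20730904 on the plus strand for Il17a, chr1:20784271-20784520 on the minus strand for Il17f and chr3:37232637-37232886 on the minus strand for Il21.
Ifng: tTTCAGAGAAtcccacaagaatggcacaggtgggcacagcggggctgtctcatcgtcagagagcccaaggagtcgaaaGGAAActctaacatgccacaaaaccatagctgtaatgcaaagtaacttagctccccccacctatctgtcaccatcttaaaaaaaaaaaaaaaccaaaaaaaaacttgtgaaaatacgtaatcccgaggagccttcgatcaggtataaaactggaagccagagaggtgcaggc
Il17a: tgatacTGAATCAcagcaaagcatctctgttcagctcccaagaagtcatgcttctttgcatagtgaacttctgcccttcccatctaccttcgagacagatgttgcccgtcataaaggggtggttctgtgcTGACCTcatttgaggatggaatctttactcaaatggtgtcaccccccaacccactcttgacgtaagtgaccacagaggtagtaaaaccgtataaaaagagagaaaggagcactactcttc
Il17f: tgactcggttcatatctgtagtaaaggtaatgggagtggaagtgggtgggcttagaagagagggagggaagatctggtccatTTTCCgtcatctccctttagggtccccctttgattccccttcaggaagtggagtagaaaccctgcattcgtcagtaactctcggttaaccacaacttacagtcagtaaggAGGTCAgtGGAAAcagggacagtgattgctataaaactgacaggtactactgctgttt
Il21: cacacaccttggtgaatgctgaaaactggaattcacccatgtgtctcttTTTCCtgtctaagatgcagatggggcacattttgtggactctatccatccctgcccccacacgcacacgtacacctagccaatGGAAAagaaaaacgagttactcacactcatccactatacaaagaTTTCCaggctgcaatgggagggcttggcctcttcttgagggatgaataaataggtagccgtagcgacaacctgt
GGAAA was matched 1 time in Ifng, 2 times in Il17f, 3 times in Il21 and 0 times in Il17a, and it is found in 55.6% of 32851 such windows. TGANTCA was matched in Il17a only among the 4 genes, with A at its centre (6.75% of windows), and TTCNNNGAA in Ifng only (7.02%). Il17a and Il17f each held 1 match to AGGTCA (14.0%), and GGTGTGA was in none of the 4 windows (3.33%). A match describes the letters of the window and does not show that a factor binds there.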

How the data were processed

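The authors extracted mean bead intensities with GenomeStudio (1.6.0 in the submitters' processing notes, another version in the methods), and the deposited intensity values were neither background-subtracted nor normalized between arrays. The deposited detection p-value of each probe was also made there, against the negative controls of its array. From these, limma 3.58.1 in R 4.3.3 (neqc, background from detection p-values, offset 16, quantile normalization) gave log2 levels. The filter kept the 14246 of 25697 probes that were detected (p up to 0.02) on 1 or more arrays. One linear model of 8 group means over the 24 arrays (16 residual degrees of freedom, 20.3 with the moderated variance) gave differences, SE and p-values, adjusted by the Benjamini-Hochberg method over all kept probes. Group means came from 3 arrays, whose number limits the precision, and the labels do not say that they came from separate animals, although the study describes 3 pairs of mice, so p-values measure the spread between these samples. Genotype calls used the 4 criteria of the methods on limma's p-values, and all other calls an adjusted p under 0.05. A gene was read by its brightest kept probe, which gave 10418 genes. A two-sided exact permutation test compared 3 arrays with 3.

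Where a group was below detection on all arrays, a fold is a bound: the mean of the other group against, per array, the higher of the probe's own level and the lowest level among detected probes. Such a bound leaves out the spread between arrays.

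The named genes were the members, Pbrm1, for each list and comparison at most the 4 called genes with the largest differences, and for each member probe the 5 genes with the highest r. Members and lists were chosen with earlier results of these data known. Alternatives were Z-scores on each array, no background correction, an offset of 50, other filters, replicate blocks, array weights, each state alone, the other call rule and leaving out each array, to which a robust background estimate and gene by gene weights were added after the data were seen. Arrays of the same letter deviated together, with correlations of 0.301 for A, 0.136 for B and 0.516 for C between WT and BAF180-deficient arrays over the 4 states (-0.00263 to 0.662 within a state), so any reading of letters as pairs comes from these data and not from the labels. Letters entered only the replicate blocks among the alternatives. The main fit and the permutation test treated the arrays as unpaired. The fits were checked on simulated data with independent normal noise, without a detection floor or a letter effect. That check therefore does not cover probes near detection or pairing by letter.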

Additional observations from a re-analysis of the deposited data

How the results depend on the processing

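Over the planned and added alternatives other than leaving out an array, 434 of the differences of members kept their direction and side of the threshold, 8 lost and 13 gained a call and 9 changed sign, and of the counts of members 146 stayed within 1.5 times and 9 did not. The cause of each change was not tested. With Z-scores on each array, the BAF180-deficient arrays all exceeded the WT arrays for 1 member in stimulated Naive cells and for 1 in stimulated Th2 cells, and the Ifng difference in stimulated Th2 cells was 0.16. With an offset of 50, and by the 4 criteria, 1 member was called lower in resting Th2 than in resting Naive BAF180-deficient cells. With arrays weighted, a fit that did not reach its convergence tolerance and gave BAF180-deficient stimulated Naive array B a weight of 7.35, 3 members were called between genotypes in stimulated Naive and 2 in stimulated Th2 cells. The Ifng difference was then -0.07 in resting Naive and 0.30 in stimulated Th2 cells, where its second probe gave 0.25 and Il21 -0.09. Weights set gene by gene, chosen after seeing the data, gave a weight of 3.58 to that array, 1 and 2 members called, -0.04 and 0.29 for Ifng, 0.24 for its second probe and -0.08 for Il21. The replicate block within each state called 1 member in resting Naive cells, Il17f, and the replicate block over all arrays 4 members upon stimulation of WT Naive cells, and the blocks changed no other call of a member.

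Leaving out each array in turn gave 0 to 1 members called between genotypes in resting Naive, stimulated Naive and stimulated Th2 cells, 1 to 2 between resting Th2 and resting Naive BAF180-deficient cells and 2 to 4 upon stimulation of WT Naive cells. Members whose BAF180-deficient arrays all exceeded the WT arrays numbered 2 to 3 in stimulated Naive and 0 to 2 in stimulated Th2 cells. The Ifng difference ran from -0.32 to 0.32 in resting Naive and from -0.34 to 0.12 in stimulated Th2 cells, that of its second probe from -0.06 to 0.55 and from -0.53 to 0.10, and that of Il21 from -0.24 to 1.17 in stimulated Naive and from -0.60 to 0.84 in stimulated Th2 cells. When arrays were left out, 1030 differences of members kept direction and side of the threshold, 7 lost and 7 gained a call and 12 changed sign, and of the counts 401 stayed within 1.5 times and 7 did not. Under the other alternatives, of other named genes 2130 differences stayed on their side of the threshold and 108 did not, and of counts within lists 2848 stayed within 1.5 times and 176 did not. Signal over background limits the dim probes, since differences near detection depend on the offset.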
